A study of Mus musculus with 16 samples.

Results

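Heat shock proteins and their cochaperones were read in mouse embryonic stem cells (ESC) and in mesodermal cells made from them, with and without activated Notch1. The 10 genes were Hspb8, Hspb1, Bag3, Hspa1a, Hspa1b, Hspa8, Hsph1, Dnajb1, Hsp90aa1 and Hspd1, of 18193 genes read from the arrays, and they were chosen by the measured response of Hspb8 to Notch1 on these arrays, beside general heat shock genes. All cells were of the ESC line EB5. EB5 NERT cells carry a pCAG vector that expresses NERT, the intracellular domain of mouse Notch1 joined to a hormone-binding domain that 4-hydroxytamoxifen (OHT) activates, and EB5 control cells carry the pCAG vector without NERT. The lines are separate, so a difference between NERT and control cells without OHT cannot be told apart from a difference between lines. NERT ESC in medium for ectodermal differentiation (ESCe) and in medium for mesodermal differentiation (ESCm), control ESCm and control mesodermal cells gave 1 array each without and with OHT. For NERT mesodermal cells there were 2 arrays of each of 4 kinds: untreated, OHT, cycloheximide (CHX, which blocks protein synthesis), and CHX together with OHT. OHT was given at 1 µM for 4 h, CHX at 50 µg/ml for 4 h, and mesodermal cells had differentiated for 4 days by the labels. The values are model-based expression intensities, a linear scale of brightness per probe set (a group of short probes for 1 transcript), over 16 arrays with medians of 42.0 to 46.9. The 10 genes have 24 probe sets, of which 22 reached a mean of 50 in at least 1 of the 12 groups, and the other 2, both of Hsp90aa1 (1433251_at and 1441827_x_at), stayed at or below 39.4 on every array. Where no probe set is named, a gene is represented by the brightest one, by its mean over the arrays. Levels of different probe sets cannot be set against each other.

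Notch is a receptor whose cleaved intracellular domain enters the nucleus and turns on genes together with the DNA-binding protein RBP-J. Heat shock proteins keep other proteins folded. Small heat shock proteins hold unfolded proteins, HSP70 proteins refold them in cycles driven by J proteins and nucleotide exchange factors, HSP90 finishes signalling proteins, and the chaperonin folds proteins in a closed chamber. Most of these genes share short heat shock elements in their promoters, through which heat and unfolded proteins turn them on together. Hspb8 is a small heat shock protein that works with the cochaperone Bag3 to hand damaged proteins to autophagy.

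The marker genes bore out the labels in part. Of 6 ESC markers, Zfp42, Sox2, Klf4 and Esrrb were higher on each of 6 ESC arrays than on each of 6 mesodermal arrays without CHX, whereas Pou5f1 and Nanog overlapped. Of 5 mesoderm markers read, Mixl1, Fgf8 and Eomes were higher on each mesodermal array, and Kdr and Mesp1 overlapped. The Notch targets Hes5 and Nrarp were at least 8.35-fold higher with OHT in each of the 4 NERT conditions and differed by 1.19-fold or less in control cells. The arrays of a cell population differ in more than chaperone genes, and a change of cell mixture cannot be told apart from a change within cells in these bulk samples.

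The promoter sequence of Hspb8 was set beside those of the general heat shock genes. RefSeq promoter windows (GRCm38.p6, 250 bases before to 50 after an annotated start) were found for 8 of the 10 genes, and Hspa8 and Hsp90aa1 had none in the table. They were searched on both strands for a heat shock element of 2 units, GAANNTTC or TTCNNGAA, for one of 3 alternating units with the same spacing, which holds the shorter one, and for the core TGGGAA bound by RBP-J. A 2-unit element was found in 7 of the 8 genes (all but Dnajb1) and in 15.1% of 32851 windows. A 3-unit element was found in Hsph1 and Hspd1, and in 0.603% of windows. TGGGAA was found in Hspb1 alone among these genes, and in 25.6% of windows. The windows of 4 genes are shown from 250 bases before the start to 20 after it, on the strand of the gene, with the matches in capitals, because they hold the kinds of match that were found. Hspb8 lies at chr5:116422845-116423114 (minus strand), Hspb1 at chr5:135887669-135887938 (plus strand), Hspa1b at chr17:34959219-34959488 (minus strand) and Hspd1 at chr1:55087913-55088182 (minus strand).
Hspb8: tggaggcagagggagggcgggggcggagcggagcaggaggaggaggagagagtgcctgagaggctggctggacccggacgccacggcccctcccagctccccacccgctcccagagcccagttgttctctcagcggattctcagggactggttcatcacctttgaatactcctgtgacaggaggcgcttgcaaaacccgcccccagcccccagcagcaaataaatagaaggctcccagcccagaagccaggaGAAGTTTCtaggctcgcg
Hspb1: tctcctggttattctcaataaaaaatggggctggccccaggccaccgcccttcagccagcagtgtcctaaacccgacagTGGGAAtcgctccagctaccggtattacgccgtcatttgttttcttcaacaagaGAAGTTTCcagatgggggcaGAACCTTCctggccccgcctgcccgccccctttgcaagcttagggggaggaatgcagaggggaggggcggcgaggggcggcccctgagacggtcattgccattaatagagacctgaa
Hspa1b: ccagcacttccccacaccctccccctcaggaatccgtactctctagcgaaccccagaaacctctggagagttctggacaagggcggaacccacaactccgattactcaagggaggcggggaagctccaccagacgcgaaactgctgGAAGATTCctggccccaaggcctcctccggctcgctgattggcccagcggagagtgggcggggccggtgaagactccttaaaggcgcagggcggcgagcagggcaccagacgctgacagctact
Hspd1: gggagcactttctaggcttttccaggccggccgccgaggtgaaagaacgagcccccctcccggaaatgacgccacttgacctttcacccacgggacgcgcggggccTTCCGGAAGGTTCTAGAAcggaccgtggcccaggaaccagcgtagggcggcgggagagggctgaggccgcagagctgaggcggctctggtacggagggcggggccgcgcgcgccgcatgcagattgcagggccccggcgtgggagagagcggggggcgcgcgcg
The single match in Hspb8 begins at base 3 of the transcript. Hspb1 holds 2 matches, at -117 and -97 from the start, and Hspa1b holds 1 at -104, as does its neighbour Hspa1a, whose window differs from that of Hspa1b at 4 bases. Hspd1 has overlapping matches from -144 on, in 1 of its 2 annotated windows. The windows are short, and a match is a run of letters and not a measured site.

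Hspb8, which binds unfolded proteins together with Bag3, was higher on each NERT array with OHT than on each matching array without it. This response chose the gene, so it is described and not tested. Probe set 1456434_x_at read 321 in NERT ESCe without OHT and 989 with OHT. In NERT ESCm it read 233 without and 959 with OHT. In NERT mesodermal cells the arrays without OHT read 775 and 932, and those with OHT 2573 and 2441. Under CHX they read 1708 and 1854 without OHT and 5403 and 6247 with OHT. No array with OHT overlapped its partners without it, and the ratios of the means were 3.08 in ESCe, 4.12 in ESCm, 2.94 in mesodermal cells and 3.27 under CHX. In control cells, which lack NERT, the probe set read 201 and 204 in ESCm and 342 and 345 in mesodermal cells, without and with OHT. Of 3 neuroectoderm markers, Nes was also higher with OHT in the 4 NERT conditions (ratios of 1.94 to 3.28, and 0.865 and 0.989 in control cells), while Sox1 and Pax6 ran from 0.189 to 1.12 and from 0.981 to 2.5. In NERT mesodermal cells the sum of the 3 was 207 to 323 without and 643 to 861 with OHT, and that of 4 endoderm markers was 198 to 269 and 98.8 to 149. The part of these markers in the values of Hspb8 was not tested.

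Both other probe sets of Hspb8 also separated the arrays by OHT in NERT cells. Probe set 1417013_at read 129 and 326 in ESCe, 109 and 297 in ESCm, without and with OHT. In mesodermal cells it read 202 and 223 without OHT and 824 and 885 with OHT. Under CHX it read 273 and 255 without OHT and 834 and 1197 with OHT. Probe set 1417014_at, the dimmest, ran from 54.8 to 102 on the 6 NERT arrays without OHT and from 117 to 358 on the 6 with OHT. In NERT cells the ratios of these probe sets lay between 2.14 and 4.02, and in control cells between 0.829 and 1.1.

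**Figure D1:**
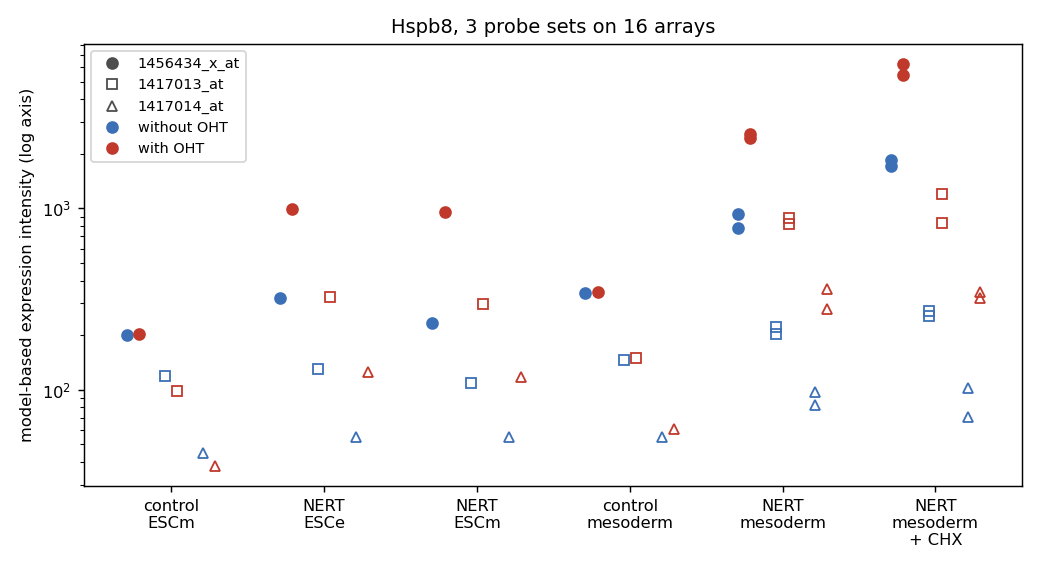
Expression intensity (log axis) of the 3 probe sets of Hspb8 on each of 16 arrays, by line, cell population and CHX, with arrays without OHT in blue and with OHT in red. In the 4 NERT conditions each red point lies above the blue points of the same probe set, and in control cells the pairs lie close together, at 201 and 204 and at 342 and 345 for probe set 1456434_x_at.

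The 9 general heat shock genes stayed near their level without OHT in the same NERT arrays. Group means were compared by size, with a doubling and a gap of more than 50 units as the criterion, and Hspb8 alone of the 10 genes was past it in each NERT condition. Of probe sets with a mean over 50 without or with OHT, 0.676% passed upward in ESCe, 0.715% in ESCm, 1.03% in mesodermal cells and 0.933% under CHX, and these shares say nothing of Hspb8, which was chosen for its response. In control cells none of the 10 genes passed, beside 0.0553% of probe sets in ESCm and 0.0273% in mesodermal cells. The ratios of the other 9 ran from 0.931 (Bag3) to 1.34 (Hspa1a) in ESCe and from 0.951 (Bag3) to 1.15 (Dnajb1) in ESCm. In mesodermal cells they ran from 0.934 (Hspb1) to 1.07 (Hspa1b), and under CHX from 0.736 (Hspa1a) to 1.17 (Hspd1). None of their 21 probe sets passed the criterion in any of the 6 conditions.

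Bag3, the partner of Hspb8 and a nucleotide exchange factor of HSP70, read 225 and 210 in NERT ESCe and 186 and 177 in NERT ESCm, without and with OHT. In NERT mesodermal cells it read 402 and 379 without OHT and 347 and 391.9 with OHT, and under CHX 324 and 391 without and 393 and 415 with OHT. The groups overlapped without CHX, and under CHX they did not, by 2 intensity units. Hspa1a, a stress-inducible HSP70, stood lower on the arrays with CHX and OHT (126 and 136) than on those with CHX alone (198 and 158). Hspb1, the other small heat shock protein, read 1921 on replicate 1 with CHX and OHT and 4794 on replicate 2, so its ratio of 0.804 under CHX rests on 1 array.

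**Figure D2:**
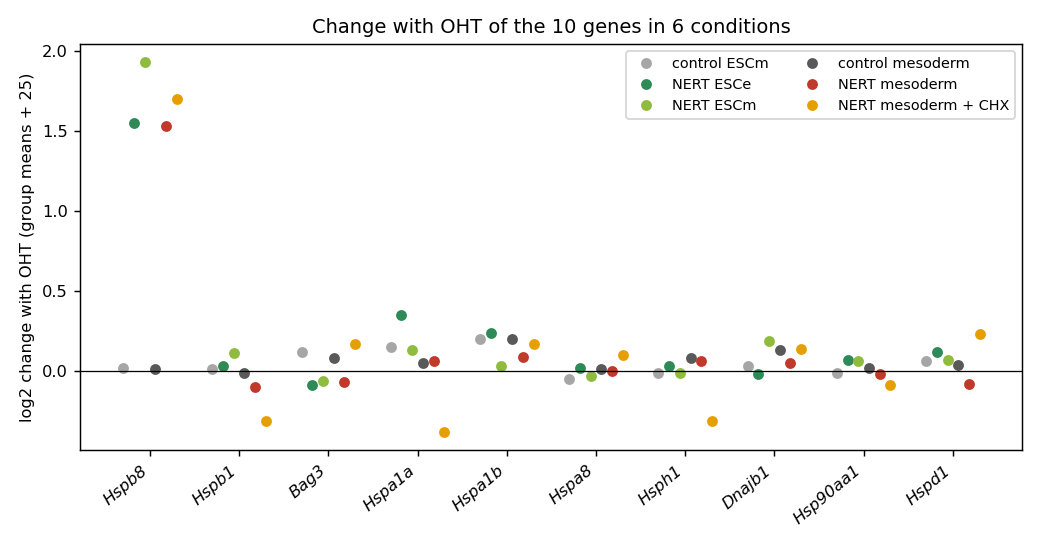
Change with OHT of the 10 genes in 6 conditions, as the log2 ratio of group means with and without OHT after adding 25 (groups of 2 arrays in NERT mesodermal cells, 1 array otherwise). Hspb8 lies at 1.53 to 1.93 in the 4 NERT conditions, and each other gene lies between -0.38 and 0.35 in all 6.

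In control cells OHT was tested by limma over 16 arrays, with a threshold of 0.05 on the Benjamini-Hochberg adjusted p over all probe sets, which holds for the tests named here. None of the 10 genes passed, none was at an unadjusted p under 0.05, and 0% of 25847 probe sets passed, with 308 at an unadjusted p under 0.05. Most of the spread in this test comes from the NERT arrays, so a change in control cells could be missed. The log2 changes (of values plus 25) lay between -0.02 (Hspa8) and 0.20 (Hspa1b), and that of Hspb8 was 0.02 (SE 0.14).

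The wider chaperone network was read from 104 other genes for small heat shock proteins, HSP70, HSP90, chaperonins, J proteins, cochaperones, heat shock factors, chaperones of the endoplasmic reticulum and autophagy partners. OHT in NERT cells called 0 of 93 tested in mesodermal cells without CHX, 0 of 93 with CHX and 0 of 96 in ESC, by limma. The shares over all probe sets were 0.893%, 0.617% and 0.538%, so counts near 0 are close to the background. At an unadjusted p under 0.05 there were 2, 2 and 6 genes, and 3 genes were called as lower under CHX when replicate 2 with CHX and OHT was left out. The median log2 changes were -0.00, 0.01 and 0.09, beside -0.04, -0.00 and 0.06 over all probe sets. Hsf2, a heat shock transcription factor, changed by 0.17 (SE 0.17), 0.01 (SE 0.17) and 0.01 (SE 0.16) and was not called. It read 42.7 to 81.2 over the arrays, close to the array medians, so a change could be missed. Hsf1 is among the genes of the list not analysed here.

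Hspa5, the main chaperone of the endoplasmic reticulum, was not called either (0.22, SE 0.14, adjusted p = 0.87 by limma in mesodermal cells). With OHT it changed by 0.01 (SE 0.14) under CHX and 0.31 (SE 0.12) in NERT ESC. In control cells, which lack NERT, Hspa5 changed by a similar 0.28 (SE 0.12), and none of these was called. It is singled out because 1 of its 3 probe sets, 1427464_s_at, read 18876 on replicate 2 of mesodermal cells with OHT, the highest value of any probe set on any array. The same probe set read 2905 on replicate 1 and between 2309 and 3696 on the other arrays. Its main probe set read 5788 and 6584 on those 2 arrays. The gene was chosen after its values were seen.

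CHX was tested in NERT mesodermal cells. The genes were chosen by the response of Hspb8 to Notch1 and not by CHX. That response was read in part on these same arrays, so the test is not independent of the choice. It was made by limma over the 8 NERT mesoderm arrays, as log2 of values plus 25. Without OHT, the main probe sets of Hspa1a, Hspb8 and Dnajb1 were called higher and those of the other 7 genes did not pass, where 32.8% of 23971 probe sets passed. With OHT the same 3 were called higher and Hsph1 lower, and 6 did not pass, where 40.5% of probe sets passed. The other probe sets of Hspb8 were not called, and that of Dnajb1 fell. Each share of the 10 genes, 30% and 40%, is thus near the background. The arrays without and with OHT are separate, so each comparison has its own 4 arrays, which share 1 estimate of the spread.

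Hspa1a read 60.6 and 71.8 without CHX and 198 and 158 with CHX, in the absence of OHT. With OHT it read 49.6 and 90.5 without CHX and 126 and 136 with CHX. The groups did not overlap in either case, and the log2 changes were 1.15 (SE 0.22, adjusted p = 0.00276) and 0.75 (SE 0.22, adjusted p = 0.0185) by limma. Its near-identical copy Hspa1b, also a stress-inducible HSP70, was at 369 without and 531 with CHX (0.49, SE 0.28, adjusted p = 0.202 by limma). With OHT it changed by 0.55 (SE 0.28, adjusted p = 0.142 by limma), which became a called 0.95 (adjusted p = 0.0186) without replicate 2 with CHX and OHT. Its probe set 1427126_at gave -0.02 and -0.55 (SE 0.26 each) without and with OHT, neither of them called. Transcripts of such copies can bind the same probes, so which of the copies changed is uncertain. With OHT the call for Hspa1a was lost without replicate 1 of the cells with OHT alone (0.44, limma adjusted p = 0.135) and without replicate 1 or 2 of those with CHX and OHT (0.80 and 0.70, limma adjusted p = 0.0514 and 0.0677).

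Hspb8 rose by 1.04 (SE 0.15, adjusted p = 0.00074 by limma) without OHT, from a mean of 853 to 1781, and by 1.20 (SE 0.15, adjusted p = 0.00021) with OHT, from 2507 to 5825. This holds for probe set 1456434_x_at alone. Without OHT, 1417013_at changed by 0.28 (SE 0.20) and 1417014_at by -0.05 (SE 0.20), and with OHT by 0.22 and 0.07 (SE 0.20 each), and neither was called. The probe sets of Hspb8 thus separated the arrays by OHT in each case and disagreed about CHX.

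Dnajb1, the J protein that drives the stress-induced HSP70 cycle, also had probe sets that disagreed. Probe set 1416755_at read 1193 and 1261 without CHX and 2013 and 1682 with CHX, a rise of 0.58 (SE 0.16, adjusted p = 0.0179 by limma). Probe set 1416756_at read 916 and 1019 without CHX and 472 and 584 with CHX, a fall of 0.85 on the log2 scale (SE 0.19, adjusted p = 0.00658). With OHT the changes were 0.67 (SE 0.16) and -0.93 (SE 0.19), both called. Without OHT the rise was lost without either array lacking CHX or without replicate 1 with CHX (limma adjusted p = 0.135, 0.0854 and 0.13). No direction can be given for the gene.

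Hsph1, an HSP110 protein that exchanges nucleotides on HSP70, fell with CHX in the presence of OHT by 0.76 on the log2 scale (SE 0.19, adjusted p = 0.0101 by limma), from 1318 and 1503 to 672 and 995. Without OHT it went from 1358 and 1343 to 1064 and 1018, a change of -0.37 (SE 0.19) that did not pass. Its other probe set, 1423566_a_at, fell in both, by 0.83 (SE 0.21) and 1.19 (SE 0.21) on the log2 scale. Without replicate 2 of the cells with OHT the fall of the main probe set was lost (adjusted p = 0.0727 by limma).

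Hspa8 and Hsp90aa1 each had 1 or more probe sets that fell with CHX beside a main one that was not called. Hspa8, the HSP70 of unstressed cells, changed by -0.04 (SE 0.10) and 0.06 (SE 0.10) without and with OHT on its main probe set 1455789_x_at. Its probe set 1420622_a_at fell by 0.85 and 0.76 on the log2 scale (SE 0.16 each, adjusted p = 0.00257 and 0.00352 by limma). Without OHT 1420623_x_at also fell, by 0.57 (SE 0.17, adjusted p = 0.028 by limma). With OHT it read 10620 and 11564 without CHX and 7747 and 9466 with CHX. The dim 1431182_at read 138 and 154 without CHX and 113 and 116 with CHX, in the absence of OHT. Hsp90aa1, the stress-responsive cytosolic HSP90, changed by 0.12 and 0.05 (SE 0.11 each) on 1438902_a_at and by -0.10 and 0.06 (SE 0.17 each) on 1426645_at, while 1437497_a_at fell by 0.60 and 0.54 on the log2 scale (SE 0.16 each). Hspb1, Bag3 and Hspd1, the mitochondrial chaperonin, were not called in either comparison. The change of Hspd1 with OHT (0.34, adjusted p = 0.0871 by limma) passed when either array with CHX alone was left out (adjusted p = 0.0415 and 0.0417). For Hspb1 the change with OHT became -1.22 (adjusted p = 0.00097 by limma) when replicate 2 with CHX and OHT was left out, which leaves the array at 1921.

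**Figure D3:**
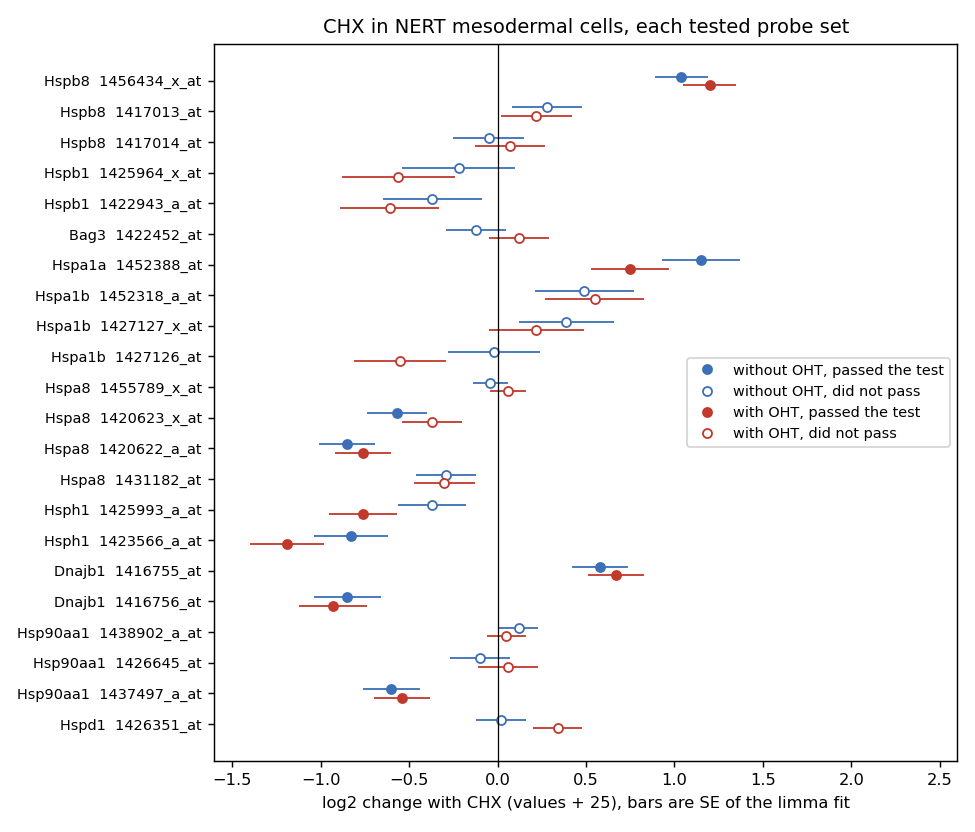
Log2 change with CHX (values plus 25) of the 22 tested probe sets of the 10 genes in NERT mesodermal cells, without OHT in blue and with OHT in red, with the standard error of the limma fit (2 against 2 arrays each). Filled points passed the test. The probe sets of Dnajb1 lie on opposite sides of 0, at 0.58 and -0.85 without OHT.

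Among the other chaperone genes 13 rose and 13 fell with CHX without OHT, of 93 tested (28.0%, beside 32.8% of all probe sets), and 18 rose and 17 fell with OHT (37.6%, beside 40.5%). Synpo, a relative of the autophagy partner Synpo2 of Bag3, was called higher without OHT, but it read 28.8 and 23.2 without CHX, below the median of every array, so the size of its change (146 and 124 with CHX) cannot be read. The largest rises of the rest without OHT were those of the J proteins Dnajb4 (134 to 450, 1.58) and Dnajb5 (139 to 417, 1.42), the cochaperone Bag5 (289 to 848, 1.48) and the HSP70 relative Hspa13 (427 to 997, 1.17). The largest falls were those of Cdc37, which brings kinases to HSP90 (1907 to 727, -1.39), the collagen chaperone Serpinh1 (2209 and 2746 to 632 and 1554, -1.29), Hspbp1, which binds HSP70 (442 to 182, -1.18), the HSP90 cochaperone Fkbp4 (2576 to 1221, -1.10) and the J protein Dnajc17 (700 to 349). Each passed limma, with adjusted p between 0.00037 for Dnajb4 and 0.0174 for Fkbp4. Without replicate 1 with CHX the changes of Serpinh1, Dnajc17 and Fkbp4 became -0.66, -0.62 and -0.75 and lost their calls (limma adjusted p = 0.125, 0.117 and 0.154), and calls of these 3 were also lost without an untreated array (replicate 2 for Serpinh1, 1 for Dnajc17, either for Fkbp4, limma adjusted p between 0.0628 and 0.0918). With OHT, Dnajb4 and Bag5 rose by 1.91 and 1.87, and Hyou1, an HSP110 protein of the endoplasmic reticulum, by 1.05. Synpo (30.5 to 171) and the J protein Dnajc25 (44.7 to 128) were called higher from dim means. Pdia4, a disulfide isomerase of the endoplasmic reticulum, went from 299 and 337 to 57.8 and 190, a fall of 1.36 on the log2 scale (SE 0.40) that became -0.67 without replicate 1 with CHX and OHT (limma adjusted p = 0.16) and -2.05 without replicate 2, and lost its call without either array with OHT alone (limma adjusted p = 0.0662 and 0.0937). Hspbp1, Cdc37, Dnajc17 and Serpinh1 fell again (by 1.30, 1.28, 1.17 and 1.12), and the call of Serpinh1 was lost without replicate 2 with OHT alone or either array with CHX and OHT (limma adjusted p = 0.186, 0.0873 and 0.0675). The 26 calls without OHT became 13 without either untreated array and 11 without replicate 1 with CHX, and the 35 with OHT became 23 and 21 without replicate 1 and 2 of the cells with OHT alone.

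By class, J proteins gave 5 rises and 2 falls of 33 tested without OHT (21.2%, beside 32.8% of all probe sets). With OHT they gave 8 and 2 (30.3%, beside 40.5%). Chaperonins gave none of 9 in either. The cochaperones of HSP70 and HSP90 gave 2 rises and 3 falls of 13 (38.5%), and 3 and 5 with OHT (61.5%). BAG proteins and nucleotide exchange factors gave 1 rise and 2 falls of 8 (37.5%), and 3 and 3 with OHT (75%). HSP70 and HSP110 genes gave 2 rises of 6 in each (33.3%). Heat shock factors gave 1 fall of 2 in each. Genes of the endoplasmic reticulum gave 2 rises and 3 falls of 14 (35.7%), and 1 and 5 with OHT (42.9%). The classes not named had at most 4 genes tested, so their shares are not read. Hspa5 rose by 0.46 (SE 0.14, adjusted p = 0.028 by limma) without OHT and was not called with OHT (0.24, SE 0.14, adjusted p = 0.194 by limma). The call for Hspa5 was lost without any 1 of the 4 arrays compared (limma adjusted p between 0.0673 and 0.172). CHX arrays also differed in markers of other cells. The 4 arrays with CHX are read together here, and 2 of them also had OHT. The summed level of 5 mesoderm markers was 2559 to 3343 without CHX or OHT and 878 to 1146 with CHX. That of 6 ESC markers was 8106 to 8561 and 9832 to 13552. Not every marker followed its sum. In the absence of OHT, Kdr went from 229 and 277 to 462 and 322 with CHX, while the other mesoderm markers fell. On the same arrays Pou5f1 went from 2576 and 1815 to 863 and 1357, Esrrb overlapped, and the other ESC markers rose. The sum of 3 neuroectoderm markers was 207 to 323 without CHX or OHT and 632 to 1340 with CHX, where Sox1 went from 16.6 and 18.7 to 184 and 172 without OHT. That of 4 endoderm markers was 198 to 269 and 323 to 527. With OHT alone the sums were 2609 to 2876 for mesoderm, 8420 to 8570 for ESC, 643 to 861 for neuroectoderm and 98.8 to 149 for endoderm markers. The part of these shifts in the chaperone values was not tested.

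Hspb8 and Bag3 were the 2 of the 10 genes called higher in mesodermal cells than in ESC, in both lines. In the NERT line without OHT they were higher, and Hspb1, Hsph1, Hspd1 and Hsp90aa1 were lower, 6 of 10 genes where 37.2% of 25847 probe sets passed limma, and 3 without either uninduced mesodermal array. In the control line they were higher and Hsph1 lower, 3 of 10 genes where 20.9% of probe sets passed. The lines use separate arrays. Without any 1 of the 4 arrays with CHX, which enter here only through the estimate of the spread, 6 or 7 genes passed in the control line, the added ones all lower in mesodermal cells. The median log2 difference of the 10 genes was -0.32 and -0.24, beside 0.06 and 0.03 over all probe sets.

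Bag3 read 177 to 225 on the 6 ESC arrays and 321 to 402 on the 6 mesodermal arrays without CHX, with no overlap. It was higher in mesodermal cells by 0.85 (SE 0.14, adjusted p = 0.00035 by limma) in NERT and by 0.70 (SE 0.14, adjusted p = 0.0031) in control cells. Hspb8 was higher by 1.55 (SE 0.14, adjusted p = 4.9e-06) in NERT cells, from a mean of 277 to 853, and by 0.70 (SE 0.14, adjusted p = 0.00442 by limma) in control cells, from 202 to 343. Its other probe sets were higher by 0.72 and 0.51 (SE 0.17 each, both called) in NERT cells and by 0.38 and 0.32 (SE 0.17 each, not called) in control cells. Of the 10 genes, Hspb8 alone passed a test of the difference between the lines, taken against ESCm, where 1.37% of probe sets passed (0.97, SE 0.22, adjusted p = 0.0496 by limma). That comparison was added after the data were seen, both other probe sets of Hspb8 missed the threshold in it (0.43 and 0.21, SE 0.25 each), and the call was lost without any 1 of the 6 NERT mesodermal arrays that did not have CHX and OHT together (0.84 to 1.10, limma adjusted p between 0.0514 and 0.157).

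Hsph1 read 2519 to 2741 on the ESC arrays and 1318 to 1503 on the mesodermal arrays without CHX. The falls were 0.89 and 0.90 on the log2 scale (SE 0.16 each, adjusted p = 0.00074 and 0.00154 by limma) in NERT and control cells. Hspb1 read 9551 to 10424 on the ESC arrays, 6105 and 6160 in control mesodermal cells and 4159 to 5048 in NERT mesodermal cells without CHX. It fell by 1.02 on the log2 scale (SE 0.29, adjusted p = 0.0161 by limma) in NERT cells, and the difference in control cells was -0.64 (SE 0.29, adjusted p = 0.148). The call for Hspb1 in NERT cells was lost without either uninduced mesodermal array (limma adjusted p = 0.086 and 0.0511). Hspd1 fell by 0.43 on the log2 scale (SE 0.12) and Hsp90aa1 by 0.24 (SE 0.09, adjusted p = 0.0497) in NERT cells, and both calls were lost without either of those arrays (limma adjusted p = 0.0819 and 0.0586 for Hspd1, 0.285 and 0.079 for Hsp90aa1). Hspa8, Hspa1a, Hspa1b and Dnajb1 did not pass in either line, with differences from -0.45 for Hspa1a to 0.23 for Dnajb1 in NERT cells.

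**Figure D4:**
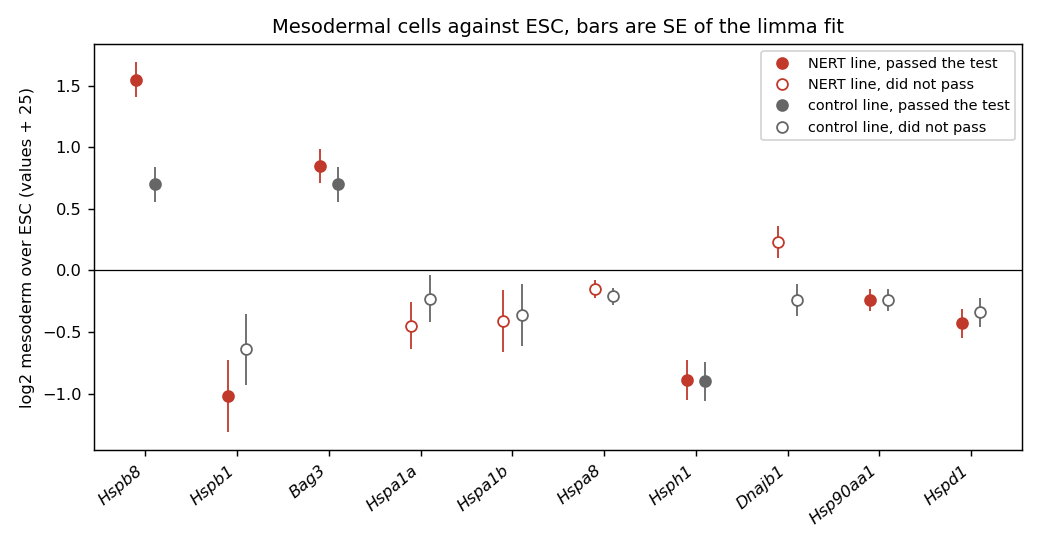
Log2 difference between mesodermal cells and ESC (values plus 25) of the 10 genes, with the standard error of the limma fit over 16 arrays. The NERT line without OHT, against ESCe and ESCm, is in red. The control line, without and with OHT together and against ESCm, is in grey. Filled points passed the test. Hspb8 and Bag3 lie above 0 in both lines, at 1.55 and 0.85 in NERT cells, and Hsph1 lies at -0.89 and -0.90.

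Of the other chaperone genes 15 were higher and 12 lower in NERT mesodermal cells, of 96 tested (28.1%, beside 37.2% of all probe sets), and 6 were higher and 7 lower in control mesodermal cells (13.5%, beside 20.9%). The 27 calls in NERT cells became 16 without replicate 1 of the uninduced mesodermal cells. Higher in both lines were Bag2, a cochaperone that inhibits the HSP70-associated ubiquitin ligase CHIP (from 183 to 441 in NERT cells, 1.16, and 0.59 in control cells), Dnajc5, a J protein of secretory vesicles (0.90 and 0.52), Sil1, an exchange factor for Hspa5 (0.86 and 0.50), and the small heat shock protein Hspb2 (0.80 and 0.59). Genes were named by the size of their change in each line, so one named for 1 line can also differ in the other. Sqstm1, the autophagy receptor p62, read 1562 and 1250 in NERT ESC and 2271 and 2539 in NERT mesodermal cells, all without OHT. Serpinh1 was called higher in NERT cells (1232 to 2477, 0.98), and Sqstm1 in control cells (1239 to 1811, 0.54). Both calls were lost without either uninduced NERT mesodermal array (limma adjusted p = 0.0536 and 0.147 for Serpinh1, 0.0575 and 0.0576 for Sqstm1). Fkbp5, a cochaperone of steroid receptors, was lower in NERT mesodermal cells (1102 to 509, -1.08), and Dnajc6, which uncoats clathrin vesicles, was lower in both lines (-1.01 and -0.95), in NERT cells not without replicate 1 of the uninduced mesodermal cells (-0.66, limma adjusted p = 0.0641). Dnaja1 and Dnajb6, cytosolic J proteins, were lower in control cells (-0.58 and -0.60). Hsf2, which read close to the array medians, differed by 0.03 and -0.09 (SE 0.16 each) and was not called.

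Of the 10 genes, Hspb8 alone passed the test between uninduced NERT and control mesodermal cells. Hspb8 read 775 and 932 in NERT cells and 342 in control cells without OHT, a difference of 1.26 (SE 0.16, adjusted p = 0.00091 by limma), 1 of 10 genes where 5.90% of 25847 probe sets passed. Control mesodermal cells without OHT are 1 array. Their level in the fit also draws on the other control arrays, through the OHT effect shared by the control populations. The spread behind this p is that of the whole fit and not of this group. Its other probe sets read 202 and 223 against 146, and 82.1 and 96.8 against 55.2, differences of 0.41 and 0.45 (SE 0.19 each) that were not called. The other 9 genes differed by -0.35 (Hspb1) to 0.45 (Dnajb1), and Dnajb1 also passed when either array with CHX and OHT was left out (limma adjusted p = 0.0369 and 0.037). Of 96 other chaperone genes 3 were called lower in NERT cells and none higher: Dnajc6 (34.9 and 71.7 against 177, -1.42), the J protein Dnajc21 (means of 715 and 1055, -0.54) and the testis chaperonin subunit Cct6b, which was below the array medians in both (14.0 and 34), so that no size is given. This count of 3 was 0 or 1 without either uninduced NERT mesodermal array, and 6 or 8 when 1 of the NERT mesodermal arrays with OHT alone or with CHX and OHT was left out.

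Nrarp, a Notch response gene, was also higher in uninduced NERT cells. Control mesodermal cells were read here on 1 array without and 1 with OHT, given in that order for single genes. The summed level of Hes5, Nrarp and Hey1 was 654 to 827 in uninduced NERT mesodermal cells and 153 to 162 in control mesodermal cells. Nrarp read 534 and 707 in the former and 87.4 and 80.7 in the latter, so it made up most of the sum. Hey1 read 94.9 and 96.4 against 45.0 and 60.9, and Hes5 read 25.1 and 23.2 against 20.98 and 20.1, below the array medians in both. The 5 mesoderm markers summed to 2559 to 3343 and to 1318 to 1359, and the 6 ESC markers to 8106 to 8561 and to 13537 to 13718. The part of these shifts in the level of Hspb8 was not tested.

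The genes whose profile was most like that of Hspb8 were Spsb1, Phlda2, Tnfaip2, Pld1 and Card10, by Pearson correlation of log2 of values plus 25 over 16 arrays (0.983, 0.979, 0.975, 0.973 and 0.968), among 12762 genes. The arrays share their OHT, CHX and population groups, so these values are a description. Spsb1, the adaptor of a ubiquitin ligase, read 149 and 437 in NERT ESCm without and with OHT, 322 and 1202 in NERT mesodermal cells (means) and 902 and 2106 under CHX, and 156 and 158 in control mesodermal cells. Like the main probe set of Hspb8, which stands for the gene here, Spsb1 was lowest in control ESCm and highest with CHX and OHT. Neither of the other probe sets of Hspb8 was called for CHX. With OHT, their arrays without and with CHX overlapped. The CHX part of the likeness thus holds for the main probe set alone. Whether the same genes rank highest for the other probe sets was not tested. None of the 5 was a heat shock gene of the list.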

How the data were processed

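Mouse EB5 cells were measured on Affymetrix Mouse Genome 430 2.0 arrays. The authors deposited model-based expression intensity values, which came from dChip after invariant set normalization against an array with median brightness (control mesodermal cells, OHT). They were used as they stand, without detection calls. Groups came from the sample labels, and no label says that replicates came from separate cultures, so p-values cover the spread among the arrays alone. It may be technical. Precision is limited by the number of arrays. The platform annotation names 1 gene for 34945 of 45037 probe sets (932 have several, 9160 have none), and 34741 of these were matched to the RefSeq gene table. Tests used limma 3.58.1 in R 4.3.3 (lmFit, eBayes with trend, two-sided) after adding 25 and taking log2, for probe sets whose mean reached 50 in a group, with Benjamini-Hochberg adjustment over all of them. Adding 25 understates changes of dim probe sets. The 8 NERT mesoderm arrays were fitted with 4 group means (4 residual degrees of freedom). All 16 arrays were fitted with 1 effect of OHT shared by both ESC media and 1 shared by both control populations (6 residual degrees of freedom), so the spread of single arrays is assumed to be that of the rest. The methods were tested on simulated data. Python 3.11.15 with numpy 2.4.6, pandas 2.3.3 and matplotlib 3.10.9 made tables and figures.

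The 10 genes, the list of 109 other chaperone genes (5 of which are not analysed here) and the tests were chosen with earlier results of these data known. Named genes are the 10, up to 5 per direction with the largest change among other chaperones past the threshold, Hsf2, and the 5 genes most correlated with Hspb8. Hspa5 was added after its values were seen. Promoters are from RefSeq (GRCm38.p6). Alternatives were other added values, no filter, quantile normalization, no trend, a replicate block, each replicated array left out in turn and the other probe sets of each gene.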

Additional observations from a re-analysis of the deposited data

Results flagged for a closer look

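Hspb8 differed between the lines in its difference between mesodermal cells and ESCm. The difference was larger in NERT than in control cells by 0.97 on the log2 scale (SE 0.22, adjusted p = 0.0496 by limma over 16 arrays), where 1.37% of 25847 probe sets passed, and this comparison was added after the data were seen. Probe sets 1417013_at and 1417014_at of Hspb8 gave 0.43 and 0.21 (SE 0.25 each) and were not called. In ESCm each line has 1 array without and 1 with OHT. The lines also differed in the summed level of Notch response genes in mesodermal cells. It was 654 to 827 in NERT cells without OHT and 153 to 162 in control cells, read on 1 array without and 1 with OHT. Most of it was Nrarp (534 and 707 against 87.4 without and 80.7 with OHT). Hes5 read 25.1 and 23.2 against 20.98 without and 20.1 with OHT. The part of these genes in the difference was not tested.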

How the results depend on the processing

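Hspb8 kept its limma call with CHX, between populations and between lines in mesodermal cells when each of the 8 replicated arrays was left out, with 0.92 to 1.17 for CHX without OHT and 1.13 to 1.38 for NERT against control cells. With another probe set in place of the main one, the called rise of Dnajb1 with CHX became a called fall (-0.85 without and -0.93 with OHT). The called rise of Hspb8 without OHT became -0.05 (SE 0.20) on 1417014_at, which is near 0. Main changes that were not called became called falls for Hspa8 (-0.85 and -0.76) and Hsp90aa1 (-0.60 and -0.54), without and with OHT. For Hspa8, 1420623_x_at also gave a called fall without OHT (-0.57). With OHT Hspa1b went from 0.55 to -0.55 on 1427126_at, neither of them called. Dnajb1 lost its calls with CHX under quantile normalization (adjusted p = 0.058 and 0.0559 by limma), and without OHT also when any of 3 arrays was left out (0.45 to 0.70 over all arrays left out in turn). The line difference of Hspb8 lost its call under 5 added, no filter, quantile normalization and no trend (limma adjusted p between 0.052 and 0.0718) and without any of 6 arrays. Without the filter, OHT in NERT mesodermal cells called 140 probe sets in place of 214, and NERT against control cells called 1 other chaperone gene in place of 3. Replicate numbers were not taken to pair the samples, because deviations of same-numbered arrays correlated at 0.114 to 0.513 in 4 of the 6 pairs of groups and at 0.007 and 0.072 in 2. With a replicate block OHT without CHX called 339 probe sets in place of 214, and Hspd1 passed for CHX with OHT (0.34, adjusted p = 0.028 by limma). The causes were not tested.

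When each replicated array was left out in turn, CHX without OHT called 3890 to 9363 probe sets, 11 to 37 other chaperones and 2 to 4 of the 10 genes, and CHX with OHT 7185 to 9915, 21 to 39 and 3 to 5. OHT called 63 to 287 probe sets without CHX, 82 to 611 with CHX and 117 to 235 in ESC, and 0 to 3 other chaperones with CHX and 0 in both others, and in control cells 0 of each. Mesoderm against ESC called 6691 to 11148 probe sets, 16 to 34 other chaperones and 3 to 7 of the 10 genes in NERT cells and 4939 to 7027, 12 to 18 and 3 to 7 in control cells. NERT against control cells called 466 to 2582, 0 to 8 and 1 to 2.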
